A study of Mus musculus with 6 samples.

Results

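The interferon-inducible GTPases described here are 10 genes: *Gbp2*, *Gbp3*, *Gbp5*, *Gbp6*, *Gbp7* and *Gbp9* of the guanylate-binding protein (GBP) family, and *Irgm1*, *Irgm2*, *Igtp* and *Iigp1* of the immunity-related GTPase (IRG) family. They are 10 of the 56262 genes listed in the count table, found by their Ensembl identifiers, and they were chosen from the comparison of genotypes in these same samples. Their difference between genotypes is therefore a description, with no p-value, and the number that passed the thresholds used for all genes supports nothing about them. RNA-seq was performed on leg muscle of mouse fetuses at embryonic day 18.5 (E18.5), in 3 WT and 3 KO samples. KO fetuses lack *SYISL*, a long noncoding RNA transcribed from within an intron of the *Synpo2* gene. WT fetuses came from matings of WT mice and KO fetuses from matings of KO mice, and WT mice were supplied by an animal centre whereas the KO line was the group's own. The genotype of the fetus, the genotype of the dam, the litter and the colony thus cannot be told apart. The sources do not give the strain, nor whether a sample was 1 fetus or a pool, so p-values measure the spread between these samples, which may be technical.

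GBPs and IRGs are large GTPases of cell-autonomous immunity. Interferons, above all interferon gamma, induce them through transcription factors that bind the gamma-activated site (GAS) and the interferon-stimulated response element (ISRE) of promoters. The proteins then assemble on the vacuoles of intracellular bacteria and parasites, and GBPs also promote inflammasome activation. IRGM proteins (*Irgm1*, *Irgm2* and *Igtp*, which encodes IRGM3) sit on host membranes and keep effector IRGs such as IIGP1 in their inactive state. In mice the genes lie in clusters. In mm10, *Gbp5*, *Gbp7*, *Gbp3* and *Gbp2* lie in a cluster on chromosome 3 between positions 142493978 and 142638008. *Gbp2b*, which is not a member, lies between *Gbp3* and *Gbp2*. *Gbp9* and *Gbp6* lie on chromosome 5 between 105077630 and 105293698. *Irgm1* (48861968 to 48871683) and the neighbours *Igtp* and *Irgm2* (58199556 to 58222782) lie on chromosome 11, and *Iigp1* lies on chromosome 18 (60376027 to 60392634).

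The promoters of 7 of the 10 genes were in the RefSeq promoter table (GRCm38.p6, the mm10 assembly), and *Gbp6*, *Gbp9* and *Iigp1* were not matched. The stretches below end at the base before the RefSeq transcription start and are written 5′ to 3′ on the strand of the gene. They are shown because the core letters of the ISRE, GAAANNGAAA, occurred in all 7, close to the start. Capitals mark matches to that core and to the GAS core, TTCNNNGAA, where N is any base. An ISRE core on the opposite strand reads TTTCNNTTTC.

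The 4 members of the chromosome 3 cluster lie on the plus strand. Their stretches are chr3:142496764-142496933 for *Gbp5* (170 bases, longer because its match lies further out), chr3:142530216-142530335 for *Gbp7*, chr3:142559924-142560043 for *Gbp3* and chr3:142620543-142620662 for *Gbp2* (120 bases each).
Gbp5: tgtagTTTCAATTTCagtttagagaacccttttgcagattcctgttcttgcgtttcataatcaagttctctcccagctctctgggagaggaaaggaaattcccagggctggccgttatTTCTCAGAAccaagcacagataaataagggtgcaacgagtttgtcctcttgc
Gbp7: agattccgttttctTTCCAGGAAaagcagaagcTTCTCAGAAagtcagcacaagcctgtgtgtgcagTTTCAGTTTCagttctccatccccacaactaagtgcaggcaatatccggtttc
Gbp3: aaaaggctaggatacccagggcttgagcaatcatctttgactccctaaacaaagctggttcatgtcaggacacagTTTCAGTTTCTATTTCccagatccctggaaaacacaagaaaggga
Gbp2: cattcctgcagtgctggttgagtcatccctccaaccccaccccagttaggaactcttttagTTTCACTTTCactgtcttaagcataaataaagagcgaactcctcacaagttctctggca

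The IRG stretches, of 120 bases each, are chr11:48871421-48871540 on the minus strand for *Irgm1*, and chr11:58199436-58199555 and chr11:58214857-58214976 on the plus strand for *Igtp* and *Irgm2*.
Irgm1: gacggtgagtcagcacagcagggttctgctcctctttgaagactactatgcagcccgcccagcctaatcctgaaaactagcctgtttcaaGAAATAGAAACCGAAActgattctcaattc
Igtp: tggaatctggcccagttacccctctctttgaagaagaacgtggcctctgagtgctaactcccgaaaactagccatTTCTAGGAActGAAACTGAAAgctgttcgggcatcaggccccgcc
Irgm2: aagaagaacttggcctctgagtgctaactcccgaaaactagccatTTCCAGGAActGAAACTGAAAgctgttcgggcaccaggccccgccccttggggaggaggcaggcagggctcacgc

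In windows from 250 bases before to 50 bases after the start, searched on both strands, the ISRE core was found in 7 of 7 members and in 1131 of 32851 promoters (3.44%) of the whole table, or 3.99% of its genes. The GAS core was found in 4 of 7 members (*Gbp5*, *Gbp7*, *Igtp* and *Irgm2*) and in 8.30% of all promoters, or 9.55% of genes. Both cores were found in those 4 members and in 0.454% of all promoters. The cores were not particular to the members. Of 24 other GTPase genes of these and related families, 11 were in the promoter table. Among these 11, 7 held an ISRE core, 4 a GAS core and 4 both. In *Gbp3* and in *Irgm1*, a pair of ISRE cores overlapped, at 45 and 39 bases and at 30 and 24 bases before the start. In *Gbp7*, *Gbp2* and *Irgm2* the core began 53, 59 and 64 bases before the start, in *Igtp* 34 bases, and in *Gbp5* 165 bases. *Gbp5* held a further GAS core 245 bases before the start, outside the printed stretch. In both *Igtp* and *Irgm2* a GAS core began 11 bases upstream of the ISRE core. The same offset of 11 bases was found in the related genes *Tgtp1*, *Tgtp2* and *Gm12185*. Another start listed for *Gbp3* held neither core. These matches describe letters only, and binding was not measured.

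**Figure D1:**
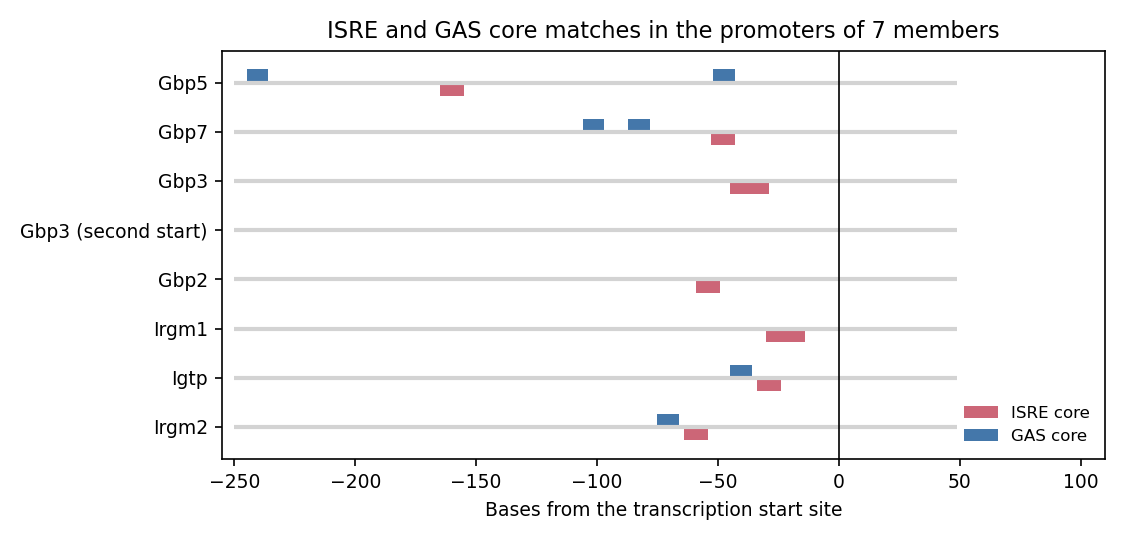
Positions of ISRE core (red) and GAS core (blue) matches in the RefSeq promoters of 7 members, in bases from the transcription start (x axis, grey line from 250 bases before to 50 after). An ISRE core lies within 64 bases of the start in 6 members and 165 bases before it in *Gbp5*, and GAS cores are found in 4 members.

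The libraries were deep, with 82054811 to 102233181 counts per sample, and a limit of 3 counts corresponded to 0.0293 to 0.0366 CPM (counts scaled to a common library total). These limits cover counting error only. Levels below are CPM on totals scaled by TMM, a factor that adjusts for differences in composition. *Synpo2*, the host gene of *SYISL*, had a mean of 136 ± 4.21 CPM over WT and of 214 ± 18.9 CPM over KO samples (SD, n = 3), which does not check the deletion, since *SYISL* itself had no symbol in the table. Markers of several tissues differed between genotypes, with 6 of 8 muscle fibre genes called higher, and 11 of 11 epidermis and 5 of 5 red blood cell genes called lower. Over all genes tested, 8.31% were called higher and 8.39% lower. The muscle fibre genes *Myh3* (log2 fold change -0.04) and *Myog* (-0.22) were not called. The 8 markers of muscle fibres summed to 17303 to 19461 CPM in WT, against 37134 to 44878 CPM in KO. The 11 epidermis markers summed to 15437 to 23194 CPM in WT, against 863 to 944 CPM in KO, and the 5 red blood cell genes to 3927 to 5167 and 545 to 664 CPM. In bulk tissue, fewer cells of a type and less RNA per cell cannot be told apart. Y-linked genes summed to 172, 0.0244 and 72.1 CPM of unscaled totals in WT replicates 1 to 3, and to 0.0749, 62.5 and 61.8 CPM in KO replicates 1 to 3.

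All 10 members had higher values in every KO sample than in any WT sample. Summed over the 10 genes, the WT samples held 92.4, 84.7 and 89.3 CPM, against 184, 179.6 and 179.8 CPM for KO, a ratio of 2.04. All 10 passed the filter on low counts. By edgeR, 9 of 10 were called higher in KO; a call needed a fold change over 1.5 with an adjusted p under 0.05. Of all 22071 genes tested, 8.31% were called higher, and 27.3% had KO values that were all above the WT values. The members were chosen on this contrast, so nothing is read from these shares. The median log2 fold change of KO over WT was 1.45 over the members and -0.0041 over all genes.

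**Figure D2:**
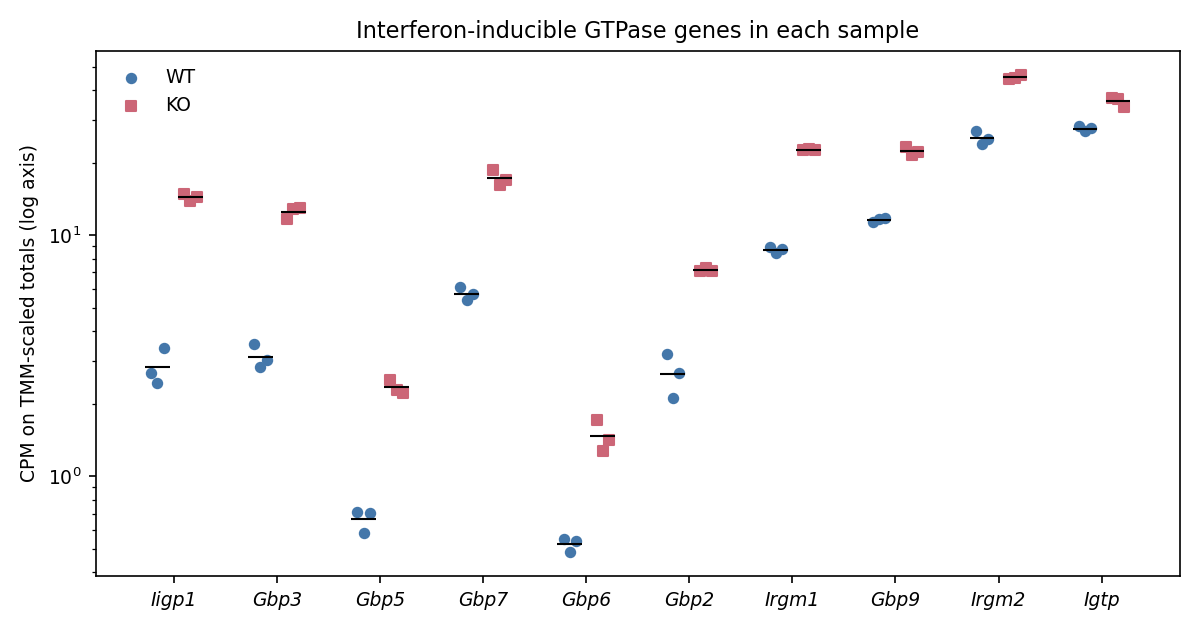
Level of each member in each sample (CPM on TMM-scaled totals, log axis). Blue circles are the 3 WT and red squares the 3 KO samples, and black bars are the means. In each of the 10 genes the 3 KO samples lie above the 3 WT samples, with the narrowest gap in *Igtp*.

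Of the GBPs on chromosome 3, *Gbp3* had the highest fold change. *Gbp3* was at 3.54, 2.83 and 3.03 CPM in WT replicates 1 to 3 and at 11.7, 12.9 and 13.0 CPM in KO replicates 1 to 3 (3.99-fold, SE 0.092 on the log2 scale). The lowest KO sample was 3.31 times the highest WT sample. *Gbp5*, whose product promotes NLRP3 inflammasome assembly, was at 0.708, 0.581 and 0.701 CPM in the WT samples, and at 2.52, 2.28 and 2.22 CPM in the KO samples (log2 fold change 1.81, SE 0.125). It was among the least abundant members, and its samples did not overlap. *Gbp7* was at 6.07, 5.36 and 5.70 CPM in the WT samples, and at 18.7, 16.1 and 16.9 CPM in the KO samples (log2 fold change 1.59, SE 0.078). Of the 150-base stretches of *Gbp7* transcripts, 91.2% occurred in no other gene, and the rest were shared with the overlapping gene model *Gm43802*. *Gbp2*, whose protein is anchored to membranes by a prenyl lipid, was at 3.20, 2.12 and 2.67 CPM in the WT samples, and at 7.12, 7.30 and 7.13 CPM in the KO samples (log2 fold change 1.43, SE 0.126). Its WT samples varied most of all members, with a coefficient of variation (CV) of 20.3%, whereas its KO samples had a CV of 1.43%.

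The chromosome 5 members had lower fold changes than *Gbp3* and *Gbp5*. *Gbp6* was at 0.549, 0.484 and 0.540 CPM in the WT samples, and at 1.72, 1.27 and 1.42 CPM in the KO samples (log2 fold change 1.48, SE 0.157). It was the least abundant member, and its value is uncertain, since only 40.9% of its 150-base stretches were unique and the others were shared with *Gbp10* and *Gm43302*. *Gbp9* was at 11.4, 11.6 and 11.8 CPM in the WT samples, and at 23.2, 21.6 and 22.0 CPM in the KO samples (log2 fold change 0.94, SE 0.054). *Gbp9* had the least variable WT samples (CV 1.99%) and was the most abundant GBP per length in both genotypes.

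*Iigp1*, which encodes an effector IRG that disrupts pathogen vacuoles, had the highest fold change of the 10 genes. *Iigp1* was at 2.69, 2.44 and 3.42 CPM in the WT samples, and at 14.8, 13.9 and 14.3 CPM in the KO samples (log2 fold change 2.32, SE 0.111). The lowest KO sample was 4.06 times the highest WT sample. The regulatory IRGM genes had smaller fold changes. *Irgm1* was at 8.93, 8.40 and 8.77 CPM in the WT samples, and at 22.6, 22.8 and 22.5 CPM in the KO samples (log2 fold change 1.38, SE 0.054). Its 3 KO samples had a CV of 0.777%, the lowest of the members. *Irgm2* was at 26.9, 23.9 and 24.9 CPM in the WT samples, and at 44.3, 44.7 and 46.3 CPM in the KO samples (log2 fold change 0.84, SE 0.051). *Igtp* was at 28.4, 26.9 and 27.8 CPM in the WT samples, and at 37.0, 36.8 and 34.0 CPM in the KO samples (log2 fold change 0.38, SE 0.048), and was the member not called because its fold of 1.30 was under 1.5. The 2 genes overlap on the same strand, with 162 exon bases in common, which is 4.39% of the exon bases of *Irgm2* and 8.01% of those of *Igtp*. Median log2 fold changes were 1.54 for the 6 GBPs and 1.11 for the 4 IRGs, and 7 members were more than 2-fold higher.

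Levels per length (CPM per kilobase of exon) ordered the members in the same way at the top in both genotypes. In WT, *Igtp* (13.7 ± 0.364; SD, n = 3), *Irgm2* (6.85 ± 0.417), *Gbp9* (2.24 ± 0.0447) and *Irgm1* (1.497 ± 0.0467) came first. *Gbp2* (1.06 ± 0.215), *Gbp7* (1.02 ± 0.0635) and *Gbp3* (0.960 ± 0.112) followed and were within their spread of each other. *Iigp1* (0.490 ± 0.0870), *Gbp5* (0.0999 ± 0.0108) and *Gbp6* (0.0881 ± 0.00593) were lowest, the last pair within their spread. In KO, the top remained *Igtp* (17.8 ± 0.838), *Irgm2* (12.2 ± 0.289) and *Gbp9* (4.30 ± 0.156). *Irgm1* (3.89 ± 0.0302) and *Gbp3* (3.83 ± 0.214) did not differ beyond their spread. *Gbp7* (3.07 ± 0.236) and *Gbp2* (2.86 ± 0.0410) also overlapped. *Iigp1* (2.46 ± 0.0786), *Gbp5* (0.352 ± 0.0238) and *Gbp6* (0.247 ± 0.0383) came last. The most abundant pair, *Igtp* and *Irgm2*, made up 59.9, 60.0 and 59.0% of the members' summed CPM in WT replicates 1 to 3, against 44.3, 45.4 and 44.7% in KO replicates 1 to 3.

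WT replicate 2 was the lowest WT sample for 9 of 10 members, all but *Gbp9*, and WT replicate 1 was the highest for 8. Among KO samples, replicate 1 was the highest for 6 members. WT replicate 2 and KO replicate 1 were the samples with almost no Y-linked counts, and with the Y-linked share as a covariate the median log2 fold change of the members was 1.502. The epidermis markers were highest in WT replicate 2 (23194 CPM, against 15437 and 17339 CPM in the other WT samples), and the part of this in the members' values was not tested.

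Of the 24 other GTPase genes of the GBP, IRG, GVIN and Mx families listed, 19 passed the filter, 14 were called higher in KO and 0 lower by edgeR, against 8.31% and 8.39% of all genes. At an unadjusted p under 0.05, 15 were higher and 0 lower, and DESeq2 and limma-voom each called 14 higher and 0 lower. Counts at an unadjusted p, here and below, used no fold threshold, and the share of all genes at that threshold was not counted. Without the fold threshold, edgeR called 4838 of all 22071 genes higher and 5098 lower at an adjusted p under 0.05. Some of the other GTPase genes had few counts in WT, and when at least 10 counts were required in every sample, 9 were called higher. *Gbp2b*, *Gbp10*, *Gm12187*, *Gm4841* and *9930111J21Rik1* had at most 19 counts in any sample and were not tested. The median log2 fold change of the 19 tested genes was 1.59. This list and the other gene lists were drawn up with earlier results of these data known. Their counts and adjusted p-values are therefore descriptions, not independent tests. Among GBPs, *Gbp4* was higher (2.19 ± 0.318 CPM in WT, 7.03 ± 0.447 CPM in KO, log2 fold change 1.68, adjusted p = 2.07e-06), as was *Gbp11* (1.12, adjusted p = 0.00767). *Gbp8* had a log2 fold change of 0.41 and was below the fold threshold. *Gm4951* lies in the same region of chromosome 18 as *Iigp1*, with *Gm4841* and *F830016B08Rik* between them. It was at 0.442 ± 0.111 CPM in WT, against 2.45 ± 0.0666 CPM in KO (log2 fold change 2.45, adjusted p = 2.49e-06). Of the other IRGs, *Gm5431* (1.86), *F830016B08Rik* (1.72), *Tgtp2* (1.69), *Ifi47* (1.62), *Gm12185* (1.59), *Gm12250* (1.59), *9930111J21Rik2* (1.36) and *Tgtp1* (1.35) were called higher on the log2 scale. *Tgtp1* and *Tgtp2* are near-identical copies, with 35.1% and 31.6% of stretches unique, so their values are uncertain. The value of *9930111J21Rik2* is also uncertain, since 55.7% of its stretches were unique and the others were shared with *9930111J21Rik1* and *Gm5431*. The giant GTPase genes *Gvin1* (1.96) and *Gm4070* (1.51) were called higher but share almost all of their sequence (3.80% and 6.57% unique). *Irgq* (52.6 ± 1.81 CPM in WT, 50.4 ± 0.462 CPM in KO), *Irgc1* and *Gm1966* were not called, with log2 fold changes of -0.06 (0.0076 with upper-quartile factors), 0.27 and 0.21. Of the antiviral Mx genes, *Mx2* rose from 0.636 ± 0.0610 to 3.16 ± 0.276 CPM (log2 fold change 2.32, adjusted p = 6.41e-07). *Mx1* had 2.04 ± 0.337 CPM in WT, against 2.26 ± 0.0996 CPM in KO (0.15, adjusted p = 0.361) and was not called, and the difference between the pair was not tested.

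**Figure D3:**
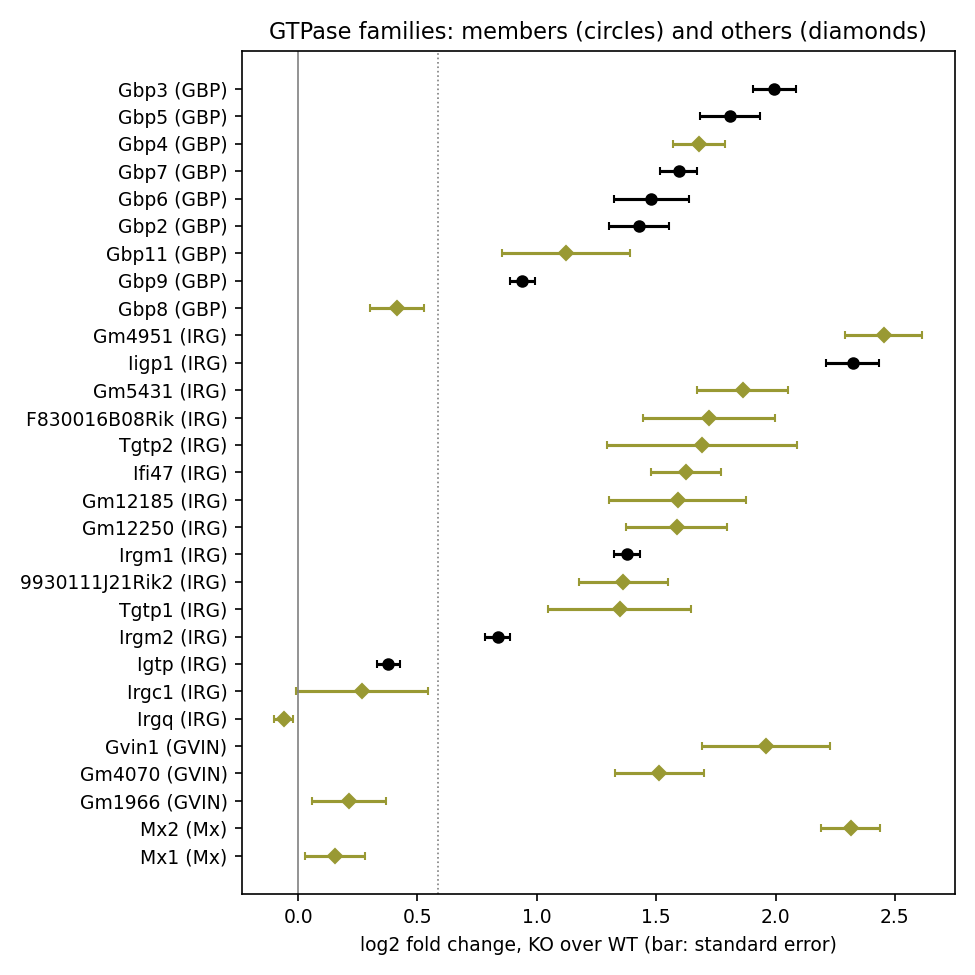
Log2 fold change of KO over WT with its standard error (x axis) for the 10 members (black circles) and the 19 other tested GTPase genes (diamonds), grouped by family. The solid line marks no change and the dotted line a fold of 1.5, and all genes but *Irgq* (-0.06, and 0.0076 with upper-quartile factors) lie to the right of 0, from 0.15 for *Mx1* to 2.45 for *Gm4951*.

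Neighbouring genes outside these families were examined because the members lie in clusters. Within 500 kb of the 5 loci, 41 other protein-coding genes were tested, of which 3 were called higher (*Olfr56*, *Myoz3* and *Pdlim5*) and 1 lower (*4930438A08Rik*), all named after their values were seen. Of all genes tested, 8.31% were called higher and 8.39% lower. *Olfr56* shares exon sequence with *Ifi47* on the same strand. *Synpo2* lies on chromosome 3 at 123076519 to 123236149, on the same chromosome as *Gbp5*, *Gbp7*, *Gbp3* and *Gbp2*.

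Interferons and their signalling genes were examined because they lie upstream of the members. Of 23 such genes, 21 were tested, and 5 were called higher and 0 lower by edgeR, against 8.31% and 8.39% of all genes. DESeq2 and limma-voom gave the same counts, and the median log2 fold change was 0.24. At an unadjusted p under 0.05 and no fold threshold, 15 were higher and 3 lower, counts to which the shares of 8.31% and 8.39% do not apply. *Ifng*, which encodes interferon gamma, had 2, 4 and 3 counts in WT and 2, 1 and 1 counts in KO and was not tested. Interferon gamma transcripts were thus at or near the limit of 3 counts in each sample. *Ifnb1*, a type I interferon gene, had 0, 1 and 0 counts in WT and 0 in each KO sample and was not tested. The type I receptor genes *Ifnar1* (log2 fold change 0.05) and *Ifnar2* (0.02) were not called. These type I genes were named after their values were seen. The receptor genes *Ifngr1* (log2 fold change 0.27, adjusted p = 0.000418) and *Ifngr2* (0.14, adjusted p = 0.0131) and the kinase gene *Jak2* (0.19, adjusted p = 0.00263) were below the fold threshold, and *Jak1* did not pass the test (0.10, adjusted p = 0.0749). Of the transcription factors, *Stat2* (log2 fold change 0.61, adjusted p = 9.63e-06) and *Irf9* (0.83, adjusted p = 3.87e-07), whose products bind the ISRE together, were called higher, although *Stat2* fell below the fold threshold without KO replicate 1 (0.56) and with library size only (0.54). *Irf1*, a transcription factor for GBP genes, was below the fold threshold (0.41, adjusted p = 0.000448). *Irf7*, which drives type I interferon genes, was higher at 2.75 ± 0.137 CPM in WT, against 12.7 ± 0.550 CPM in KO (2.21, adjusted p = 5.82e-08). Of the inhibitors, *Usp18* rose from 0.679 ± 0.174 to 4.84 ± 0.481 CPM (2.81, adjusted p = 1.11e-06) and *Socs1* was not called (0.11, adjusted p = 0.368).

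Of 17 further interferon gamma target genes, 16 were tested, and 7 were called higher and 0 lower by each of the 3 tools. By edgeR, 8.31% of all genes were called higher and 8.39% lower. The median log2 fold change of the target genes was 0.55. At an unadjusted p under 0.05 and no fold threshold, 13 were higher and 0 lower, and the 8.31% and 8.39% do not apply to these counts. The immunoproteasome subunit genes *Psmb9* (0.820 ± 0.0781 CPM in WT, 2.25 ± 0.348 CPM in KO, 1.46, adjusted p = 3.72e-05) and *Psmb8* (1.13, adjusted p = 5.47e-05) were higher. The peptide transporter genes *Tap2* (1.01) and *Tap1* (0.94), the checkpoint ligand gene *Cd274* (1.07) and *Nlrc5* (0.62), a regulator of MHC class I genes, were also called higher; *Nlrc5* fell below the fold threshold without WT replicate 2 (0.56) and with library size only (0.55). The remaining one was *Cxcl10* (0.86), a chemokine gene below a mean of 1 CPM, named after its values were seen. The 9 tested targets not called were *B2m* (0.56), *Tapbp* (0.54), *Ciita* (0.42), *Psmb10* (0.34), *Psme1* (0.27), *Cxcl9* (0.21), *Icam1* (0.11), *Psme2* (0.03) and *Wars* (-0.08). These 9 were also named after their values were seen.

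**Figure D4:**
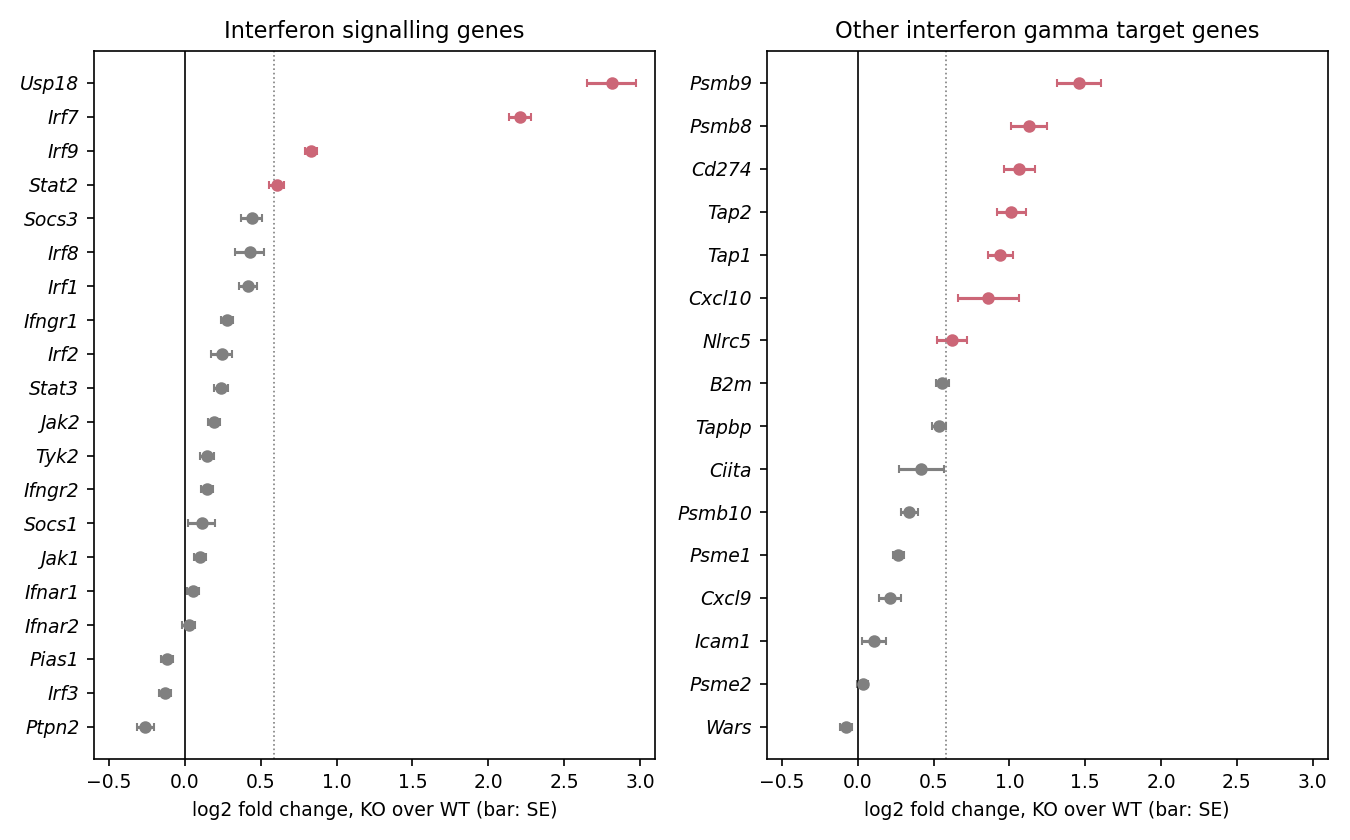
Log2 fold change of KO over WT with its standard error (x axis) for 20 of the 21 tested interferon signalling genes (left) and 16 tested interferon gamma target genes (right). Red points are genes called higher and grey points those not called, the dotted line marks a fold of 1.5, and *Usp18* (2.81) and *Irf7* (2.21) lie furthest to the right.

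Genes for proteins that GBPs and IRGs work with were examined next. Of 20 autophagy, ubiquitin and inflammasome genes, 2 were called higher and 4 lower, against 8.31% and 8.39% of all genes. The count called higher was near the share of all genes. Higher were the ubiquitin ligase gene *Trim21* (log2 fold change 0.92, adjusted p = 6.36e-06) and the caspase gene *Casp4* (0.71, adjusted p = 0.000138). Lower were *Lgals3* (-2.94, adjusted p = 1.07e-07), which encodes the galectin that marks damaged vacuoles, *Pycard* (-0.99), the inflammasome adaptor, *Traf6* (-0.76), a ubiquitin ligase, and *Gabarapl2* (-0.60), an autophagy protein gene. *Gabarapl2* fell below the fold threshold without WT replicate 1 (-0.58), WT replicate 2 (-0.58) or KO replicate 1 (-0.56). Epidermal cells are a known source of galectin 3, and the epidermis markers were lower in KO, as given above; the part of this was not tested. Of the 6 genes for enzymes that attach or process the prenyl lipid, 0 were called by edgeR, DESeq2 or limma-voom. At an unadjusted p under 0.05, 3 were lower, and without the fold threshold edgeR called 2 lower (*Fnta* at -0.26 and *Icmt* at -0.32, named after their values were seen). Of all 22071 genes tested, 5098 were called lower without the fold threshold. The median log2 fold change was -0.12 over the partners and -0.12 over these enzymes.

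Markers of other cell types were compared with the members. For the counts below, 8.31% of all genes were called higher and 8.39% lower. The 11 macrophage markers summed to 312 to 336 CPM in WT, against 479 to 520 CPM in KO, a ratio of 1.52, and 6 of 11 were called higher, among them *Cd163* (1.91) and *Mrc1* (0.91). Of the macrophage genes not called, *Csf1r* (log2 fold change 0.35), *Cd68* (0.49) and *Lyz2* (-0.27, adjusted p = 0.00571 by edgeR) were below the fold threshold. *Itgam* (-0.03) and *Cx3cr1* (-0.04) did not pass the test. The 12 T and NK cell markers summed to 6.39 to 7.15 CPM in WT, against 11.1 to 11.6 CPM in KO, with 2 of 12 called higher, 2 lower and 4 not tested. *Cd3e* (1.21) and *Cd4* (0.64) were called higher, and the cytotoxic cell genes *Nkg7* (-0.82) and *Gzmb* (-0.99) lower. *Cd3e* alone supplied 2.92 to 3.24 CPM of the WT sums, against 6.47 to 7.64 CPM of the KO sums. The other CD3 genes were not called with it. *Cd3g* had a log2 fold change of 0.57 (adjusted p = 0.0606 by edgeR). *Cd3d* was at no more than 0.0968 CPM in any sample and was not tested. *Cd8a* was at no more than 0.0525 CPM in any sample and *Ncr1* at no more than 0.0315 CPM. The 10 endothelium markers summed to 792 to 823 CPM in WT, against 918 to 965 CPM in KO, with 1 of 10 called higher, and the 4 B cell markers to 2.21 to 2.41 and 2.12 to 2.36 CPM. The 6 fibroblast markers summed to 31296 to 33933 CPM in WT, against 36784 to 37732 CPM in KO, with 0 of 6 called by edgeR, DESeq2 or limma-voom. At an unadjusted p under 0.05 and no fold threshold, 5 of the 6 were higher, a count to which the 8.31% does not apply. The 5 neutrophil markers summed to 4.59 to 14.2 CPM in WT, against 7.16 to 10.2 CPM in KO. The ratio of the members' sums was 2.04, and of the muscle fibre markers 2.28. The part of these cell types in the members' levels was not tested.

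**Figure D5:**
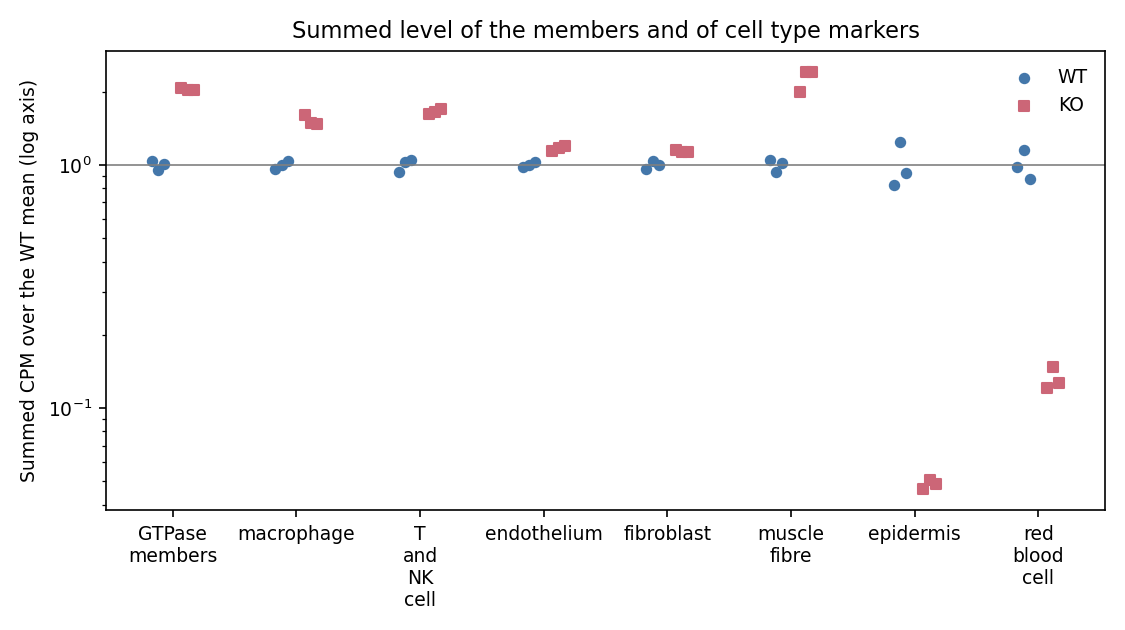
Summed CPM of the 10 members and of cell type marker lists in each sample, divided by the mean of the WT samples (log axis). Blue circles are WT and red squares KO samples. The members' sum was 2.04 times higher in KO, the macrophage sum 1.52 times, and the epidermis and red blood cell sums were lower in KO.

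The genes whose profiles over the 6 samples were most like that of the members were found among 15864 tested genes with a mean of at least 1 CPM. Likeness was the root mean square difference between the gene's log2 CPM, centred on its mean, and the mean centred profile of the members. The closest were *Galnt15* (0.0291 log2 units), *Parp14* (0.0338), *Dhx58* (0.0415) and *Gm8995* (0.0448), followed by *Pm20d2* (0.0610), *Mylf-ps* (0.0780), *Tnfsf10* (0.0804) and *Bst2* (0.0812). *Parp14*, an ADP-ribosyltransferase gene, was at 8.57, 7.43 and 7.85 CPM in WT and 21.9, 20.8 and 20.2 CPM in KO. *Bst2*, which encodes the virus-tethering protein tetherin, was at 12.3, 10.2 and 11.4 CPM in WT and 28.6, 32.5 and 29.1 CPM in KO. These genes were chosen by their likeness, so their difference between genotypes is a description. Of the members, *Irgm1* was closest to the common profile (0.0478 log2 units), and *Igtp* (0.521) and *Iigp1* (0.476) were farthest.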

How the data were processed

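RNA was sequenced in 150 bp paired-end reads. According to the submitters' processing notes, reads were trimmed with Trim Galore 0.6.6, mapped to mm10 with HISAT2 2.2.1 and counted with featureCounts 2.0.1; the annotation, strand setting and counting of reads or pairs are not given in the sources used here. The authors deposited raw counts per gene, without normalization. Genes were matched to GENCODE M21 by Ensembl identifier, and 55227 of 56262 matched. In R 4.3.3, edgeR 4.0.16 was run with filterByExpr, TMM factors and the quasi-likelihood F-test on genotype. P-values were adjusted by Benjamini-Hochberg over all 22071 genes tested. A call required a fold change over 1.5 together with an adjusted p under 0.05. CPM per kilobase used the length of all exons joined. Promoter windows came from RefSeq, and uniqueness was the share of 150-base transcript stretches found in no other gene. The code was tested on simulated data. The members and gene lists were chosen with earlier results of these data known, and named genes were all members and tested GTPases, fixed signalling genes and at most 6 called genes per other list with a mean of at least 1 CPM; 1 of these genes is not reported here. Alternatives were other scaling factors, filters, DESeq2 1.42.0, limma-voom 3.58.1, a replicate block, a Y-linked covariate, no fold threshold and leaving out each sample.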

Additional observations from a re-analysis of the deposited data

How the results depend on the processing

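All 10 members had a positive log2 fold change and 9 were called higher under every alternative that kept the fold threshold (the calls of members without it were not counted), and their median lay between 1.38 with library size only and 1.54 with 1 sample left out (leave-one-out range 1.39 to 1.54). Under upper-quartile factors and library size only, *Irgm1* (1.45 and 1.31), *Gbp9* (1.01 and 0.87), *Irgm2* (0.90 and 0.77) and *Igtp* (0.44 and 0.31) moved by more than the SD of log2 CPM between replicates, pooled over both genotypes; the scaling shifted the median of all genes by up to 0.07. Replicate numbers did not pair the samples (correlations of deviations -0.20, -0.13 and 0.05), and with a replicate block the members' median was 1.46. With at least 10 counts in every sample, 9 of the other GTPase genes were called higher in place of 14, since fewer genes were tested. Without the fold threshold, 4838 genes were called higher and 5098 lower, against 1835 and 1852 with it; the signalling list then had 14 higher and 3 lower, the targets 13 higher, the partners 6 higher and 9 lower, and the prenylation enzymes 2 lower. *Irgq* turned from -0.06 to 0.0076 with upper-quartile factors, and was not called in either. *Gabarapl2* fell below the fold threshold with upper-quartile factors (-0.53) and without WT replicate 1, WT replicate 2 or KO replicate 1. *Stat2* did so with library size only (0.54) and without KO replicate 1 (0.56), and *Nlrc5* with library size only (0.55) and without WT replicate 2 (0.56). The causes were not tested. Depth limited the genes with few counts, such as *Ifng*, for which no difference was detectable.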
